A study of Mus musculus with 3 samples.

Results

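The genes described here are 6 of the 17121 genes in a table of RNA levels from mouse CD8+ T cells: Lcn10, Gja5, Car2, Drc1, Cpd and Igfbp4. They were chosen by their measured values in the young samples: few reads in cells stimulated through the T cell receptor alone and over 30 CPM (reads counted per 1e+06 of the library) in cells that also received IL-15 and TGF-beta. None is among the usual genes of tissue residency. Their levels in those young samples are therefore given as a description, and the aged sample had no part in the choice. Spleen and lymph node of wild-type mice supplied the CD8+ T cells, whose RNA was sequenced after 3 days in culture, with 1 sample in each of 3 groups. The aged TRM sample came from mice of 18 months and received antibodies to CD3 and CD28 (1 µg/ml) and, in addition, 20 ng/ml of IL-15 and 5 ng/ml of TGF-beta, the condition named after tissue-resident memory T cells (TRM). The young TRM sample received the same from mice of 6 weeks. The young TCR sample, also from mice of 6 weeks, received the antibodies alone, so all 3 samples share stimulation of the T cell receptor (TCR). Both cytokines were always added together, so the response to one of them cannot be told apart from the response to the other. The culture dish is a limit of the model, since no tissue was present. The labels do not say how many mice gave each sample.

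TGF-beta signals through SMAD transcription factors and is needed by many CD8+ T cells to settle in epithelial tissue, where it raises the integrin chain CD103. IL-15 signals through STAT transcription factors and sustains memory CD8+ T cells. The genes described here belong to unrelated families that are best known outside the immune system. Lcn10 encodes a lipocalin, a small secreted protein with a pocket for greasy ligands, known in the mouse from the epididymis. Gja5 encodes the gap junction protein Cx40 of arterial endothelium and atrial muscle, and Car2 encodes a cytosolic carbonic anhydrase, which interconverts carbon dioxide and bicarbonate in red cells, kidney and osteoclasts. Drc1 encodes a subunit of the nexin-dynein regulatory complex of motile cilia and sperm tails, structures that lymphocytes lack. Cpd encodes carboxypeptidase D, a membrane enzyme of the Golgi that trims basic residues from the ends of proteins that convertases have cut. Igfbp4 encodes a secreted protein that binds insulin-like growth factors, and it is also a known transcript of naive T cells.

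The samples held 40385477 reads in aged TRM, 36021887 in young TRM and 39915663 in young TCR, each in 2 numbered columns that the labels do not explain. The columns were summed and treated as repeat measurements of 1 sample. With 1 sample per group nothing could be tested against variation between mice, and there are no p-values. Intervals are 95% intervals of counting error only. The words rose and fell are used of a gene only where CPM plus 1 changed 2-fold or more and the counting interval of the CPM ratio did not include 1, which is the threshold named below. T cell genes were abundant in all samples: 8 markers summed to 4027 CPM in aged TRM, 4369 CPM in young TRM and 3007 CPM in young TCR, with Cd8a at 1632, 1822 and 747 CPM in that order of samples. In such bulk samples, fewer cells of a type and less RNA per cell cannot be told apart.

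Each of the 6 genes had a higher level in young TRM than young TCR, as the choice required, by 32.9-fold for Cpd up to 231-fold for Lcn10 and, from a single read in young TCR, about 1559-fold for Gja5. All 6 were also higher in aged TRM than in young TCR, but Gja5, Lcn10 and Drc1 were under 30 CPM in aged TRM, at 27.3, 20.6 and 5.71 CPM. Cpd, Gja5 and Car2 stayed within 2-fold of young TRM in the aged sample, whereas Drc1, Igfbp4 and Lcn10 fell. Of all 11588 genes tested between young TRM and young TCR, 484 rose (4.18%), 417 fell (3.6%) and 7.78% did either, and since the choice used that contrast nothing is read from the 6 of 6 here. Of 11575 genes tested between aged TRM and young TRM, 133 fell (1.15%) and 260 rose (2.25%), 3.4% in all, against 3 and 0 of the 6 genes. Young TRM stands in both comparisons and was used in the choice, so those 3 lower values are not independent of it. All 6 genes rose in aged TRM against young TCR, where 4.12% of 11688 genes rose, 2.33% fell and 6.45% did either, and young TCR was likewise used in the choice.

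**Figure D1:**
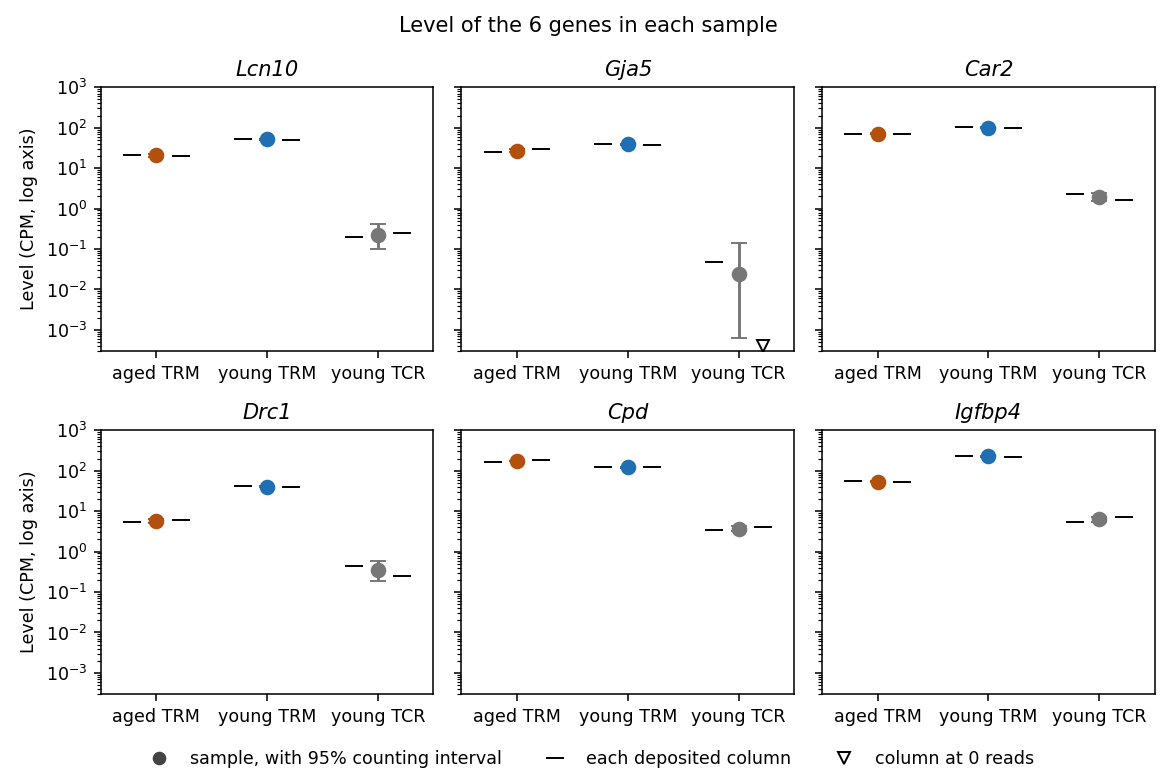
Level of each gene in CPM on a log axis in aged TRM, young TRM and young TCR. Circles are samples with 95% counting intervals, dashes are the 2 deposited columns of each sample, and the open triangle is a column with 0 reads. In every panel both TRM samples lie above young TCR, with Gja5 lowest in young TCR at 0.0247 CPM, and Drc1 is the gene lowest in aged TRM relative to young TRM.

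Lcn10 (gene ID 332578) is a chromosome 2 gene (25682726 to 25686081, GRCm38.p6, plus strand) with 6 exons in its only GENCODE transcript model. It had 837 reads in aged TRM, 1809 in young TRM and 9 in young TCR, or 20.6 CPM (interval 19.2 to 22.03), 51.3 CPM (49.0 to 53.8) and 0.222 CPM (0.102 to 0.421). The columns gave 21.1 and 20.1 CPM in aged TRM, 52.1 and 50.7 CPM in young TRM, and 0.197 and 0.247 CPM in young TCR, so no sample's columns overlapped those of another. The ratio of young TRM to young TCR was 231-fold (122 to 507), and aged TRM stood 92.7-fold (48.6 to 204) above young TCR. Against young TRM, Lcn10 fell to 40.1% in aged TRM, a log2 ratio of -1.28 that ranged from -1.33 to -1.23 over the 4 pairings of columns.

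The gene next to Lcn10, Lcn6, was the only other lipocalin gene that rose. Lcn6 lies on the same strand and ends 1117 bases before Lcn10 begins, with 5 exons in its longest coding model. It had 59 reads in aged TRM, 109 in young TRM and 4 in young TCR, or 1.45, 3.09 and 0.0987 CPM, and both TRM samples again lay above young TCR in each column. Young TRM exceeded young TCR by 31.4-fold (11.9 to 117). In aged TRM it was 0.469 of the young TRM level (0.336 to 0.650), a log2 ratio of -0.74 that did not pass the threshold. This gene is weakly expressed, and with a pseudocount of 5 its log2 ratio between young TRM and young TCR was 0.67, under the threshold. The other genes around Lcn10 that reached 1 CPM comprised only Bmyc, a relative of Myc, at 32.3 CPM in aged TRM, 26.3 CPM in young TRM and 14.2 CPM in young TCR, and it did not pass the threshold in either comparison. The neighbouring lipocalin genes Obp2a and Obp2b had at most 5 and 2 reads in any sample.

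Of 25 lipocalin genes on the list, 17 were in the table and 5 reached 1 CPM in young TRM or young TCR, of which Lcn10 and Lcn6 rose and none fell. Over all genes 4.18% rose and 3.6% fell, and Lcn10 was chosen on this contrast. Without Lcn10, the other 4 tested lipocalins had a median log2 ratio of 0.09 between young TRM and young TCR, against 0.02 for all genes tested, and -0.53 between aged TRM and young TRM, against -0.01. Lcn4 had 4.99 CPM in aged TRM, 7.32 CPM in young TRM and 6.71 CPM in young TCR. Orm3, which encodes a serum acid glycoprotein, had 0.886, 1.82 and 1.68 CPM, and C8g, a complement component, had 1.80, 1.76 and 1.68 CPM.

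Promoter sequences are shown for the adjacent lipocalin genes because both rose in the same samples, and for Gja5 and Drc1 because they and Lcn10 had the fewest reads in young TCR. Each is the stretch of 250 bases before the start that the RefSeq promoter table (GRCm38.p6) gives, printed 5′ to 3′ on the plus strand. Capitals mark matches, on either strand, to the motifs CAGAC (a SMAD box), TTCNNNGAA (a STAT site), TGANTCA (an AP-1 site) and TGTGGT (a RUNX site). That start is 25682726 for Lcn10, 25676786 for Lcn6, 97032402 for Gja5 and 30281393 for Drc1. For Lcn6 and Drc1 it lies inside the gene span of the annotation, which begins at 25676638 and 30281335, so the end of each of these windows is within the gene. The GENCODE models of Gja5 span 96904693 to 97077416, so the printed Gja5 window lies wholly inside that wider span.
Lcn10 (chr2:25682476-25682725): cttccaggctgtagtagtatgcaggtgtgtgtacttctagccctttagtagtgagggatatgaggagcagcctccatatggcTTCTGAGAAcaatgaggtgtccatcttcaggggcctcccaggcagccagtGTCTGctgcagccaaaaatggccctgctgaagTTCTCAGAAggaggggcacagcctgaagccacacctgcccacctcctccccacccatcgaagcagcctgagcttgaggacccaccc
Lcn6 (chr2:25676536-25676785): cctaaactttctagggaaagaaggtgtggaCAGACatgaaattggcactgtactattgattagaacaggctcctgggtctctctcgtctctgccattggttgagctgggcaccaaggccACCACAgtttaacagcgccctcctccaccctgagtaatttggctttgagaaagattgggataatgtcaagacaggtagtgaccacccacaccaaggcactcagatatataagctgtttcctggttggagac
Gja5 (chr3:97032152-97032401): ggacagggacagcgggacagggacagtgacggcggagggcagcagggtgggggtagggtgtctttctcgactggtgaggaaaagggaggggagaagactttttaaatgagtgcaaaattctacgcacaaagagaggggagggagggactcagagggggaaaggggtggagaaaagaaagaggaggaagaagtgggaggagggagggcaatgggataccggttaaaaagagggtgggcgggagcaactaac
Drc1 (chr5:30281143-30281392): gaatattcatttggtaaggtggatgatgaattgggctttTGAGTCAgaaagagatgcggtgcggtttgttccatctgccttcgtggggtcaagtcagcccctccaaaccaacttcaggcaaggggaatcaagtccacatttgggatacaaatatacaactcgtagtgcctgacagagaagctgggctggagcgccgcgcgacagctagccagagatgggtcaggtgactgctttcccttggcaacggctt
The Lcn10 window held 2 STAT matches, beginning 168 and 86 bases before that start, and 1 SMAD box 118 bases before it. Over 32851 promoters of the same length, 7.02% held at least 1 STAT match, 0.317% at least 2, and 42.2% a SMAD box. At least 2 matches were held by 11.7% for the SMAD box, 0.338% for the AP-1 motif and 1.27% for the RUNX motif. All 4 motifs were searched in the windows of 5 of the 6 genes and of Lcn6, so nothing is read from 1 pair of matches. The Lcn6 window held 1 SMAD box and 1 RUNX match, and 14% of promoters held the RUNX motif. The Drc1 window held 1 AP-1 match, a motif found in 6.75% of promoters, and the Gja5 window held no match to any of the 4 motifs. Promoter sequences were found for 5 of the 6 genes, without Car2, and the windows of Cpd and Igfbp4 also held no match. The Igfbp4 window, before a start at 99041244, lies wholly inside the gene span. A match describes letters in the window and does not show binding.

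Gja5 (gene ID 14613) lies on chromosome 3, positions 97032402 to 97053634, and has 4 exons in its longest coding model. It had 1109 reads in aged TRM, 1355 in young TRM and 1 in young TCR, or 27.3 CPM (25.7 to 28.9), 38.5 CPM (36.4 to 40.6) and 0.0247 CPM (0.000625 to 0.137). The columns held 25.4 and 29.2 CPM in aged TRM, 38.8 and 38.2 CPM in young TRM, and 1 and 0 reads in young TCR. Both TRM samples were thus far above young TCR, which was near the limit of counting: the ratio of young TRM to young TCR was 1559-fold with an interval of 279 to 61626. Aged TRM reached 70.9% of young TRM, a log2 ratio of -0.48 that did not pass the threshold. The columns of the samples did not overlap, but they were treated as repeat measurements and do not cover variation between mice.

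No other gap junction gene rose or fell in either comparison, where 7.78% and 3.4% of all genes did. Of 23 connexin and pannexin genes on the list 17 were in the table, and 4 reached 1 CPM in young TRM or young TCR. Panx1, a channel of the plasma membrane that is not a connexin, was the most abundant of them at 63.0 CPM in aged TRM, 72.5 CPM in young TRM and 52.8 CPM in young TCR. Gja1, the widespread connexin gene, had 1.18, 0.568 and 1.04 CPM, and Gjc3 had 0.738, 1.22 and 1.06 CPM. Gjb2, a connexin gene of the inner ear, had 1.01, 0.681 and 0.321 CPM. Without Gja5 the median log2 ratio was 0.11 over 3 genes between young TRM and young TCR and 0.03 over 4 genes between aged TRM and young TRM. The 10 endothelial markers in the table summed to 4.55 CPM in aged TRM, 2.36 CPM in young TRM and 7.10 CPM in young TCR, and 2 of the 10 had 0 reads in young TRM. Most of this was Egfl7, with 3.27, 1.28 and 4.83 CPM, and Vwf, with 0.615, 0.312 and 1.46 CPM. Only 2 of the 10 were tested between young TRM and young TCR. The 7 markers of cardiac and smooth muscle summed to 4.70, 4.51 and 4.98 CPM. Whether endothelial or muscle RNA contributed to Gja5 was not tested.

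Car2 (gene ID 12349) lies on chromosome 3, positions 14886269 to 14900770, and has 7 exons in its longest coding model. It had 2908 reads in aged TRM, 3542 in young TRM and 79 in young TCR, or 71.5 CPM (69.0 to 74.2), 101 CPM (97.2 to 104) and 1.95 CPM (1.54 to 2.43). The columns held 71.2 and 71.8 CPM in aged TRM, 104 and 98.0 CPM in young TRM, and 2.26 and 1.63 CPM in young TCR. The samples kept this order in every column. Young TRM was 51.6-fold (41.3 to 65.3) above young TCR, and aged TRM stood at 71.2% of young TRM, with a log2 ratio of -0.49 that did not pass the threshold.

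Among 16 carbonic anhydrase genes 14 were in the table, and Car2 was the only one called between young TRM and young TCR, where 6 were tested. Of all genes 7.78% were called there. The other 5 carbonic anhydrase genes had a median log2 ratio of -0.35, and 4 of the 5 lay below 0. Car12, a carbonic anhydrase of the cell surface, had 11.5 CPM in aged TRM, 7.89 CPM in young TRM and 15.2 CPM in young TCR, and Car5b, a mitochondrial form, had 3.47, 2.61 and 3.601 CPM. Car13, a cytosolic form beyond Car1, had 2.29, 1.05 and 1.63 CPM. Car3, 13888 bases from Car2, had 0, 1 and 0 reads. Car1, which lies 77904 bases from Car2 and is the abundant form of red cells, had 3.27 CPM in aged TRM, 0.851 CPM in young TRM and 0.691 CPM in young TCR. It rose in aged TRM against young TRM by 3.84-fold (2.57 to 5.92), a call lost with a pseudocount of 5 (log2 ratio 0.50). The 9 red cell markers in the table include Car1. They summed to 15.5 CPM in aged TRM, 6.67 CPM in young TRM and 4.56 CPM in young TCR. The sum was lowest in young TCR, as was Car2, and highest in aged TRM, whereas Car2 was highest in young TRM. Of the 2 red cell markers tested between young TRM and young TCR, 1 had a log2 ratio above 0 and 1 had one below. The latter was Epor, with 1.84 CPM in young TRM and 2.42 CPM in young TCR. The globin gene Hbb-bt rose in both comparisons, with 250 reads in aged TRM, 88 in young TRM and 30 in young TCR, by 3.38-fold (2.21 to 5.29) between young TRM and young TCR. That call was lost with column 2 alone, with scaling by totals only and with a pseudocount of 5, and the call between aged TRM and young TRM with column 1 alone and with a pseudocount of 5. Whether red cell RNA contributed to Car2 was not tested.

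Of 12 bicarbonate and proton transporters, which move the products of carbonic anhydrases across membranes, 1 rose and 0 fell among 10 tested between young TRM and young TCR, against 4.18% and 3.6% of all genes. The transporter gene that rose was Slc4a4, a sodium bicarbonate cotransporter, with 215 reads in aged TRM, 69 in young TRM and 2 in young TCR, or 5.29, 1.96 and 0.0493 CPM. It rose again in aged TRM against young TRM, by 2.70-fold (2.05 to 3.595). Both Slc4a4 calls were lost with a pseudocount of 5 (log2 ratios 0.46 and 0.56) and with the deposited TPM (0.58 and 0.66). The abundant lactate transporter gene Slc16a3 had 239 CPM in aged TRM, 221 CPM in young TRM and 270 CPM in young TCR, and Slc16a1 had 163, 146 and 214 CPM. Slc4a7 had 102, 91.4 and 75.2 CPM, and none of the 3 passed the threshold in either comparison.

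Drc1 (gene ID 381738) lies on chromosome 5, positions 30281335 to 30366695, and has 17 exons in its only coding model. It had 232 reads in aged TRM, 1429 in young TRM and 14 in young TCR, or 5.71 CPM (5.00 to 6.49), 40.6 CPM (38.5 to 42.7) and 0.345 CPM (0.189 to 0.579). The columns held 5.48 and 5.94 CPM in aged TRM, 42.1 and 39.3 CPM in young TRM, and 0.443 and 0.247 CPM in young TCR. Aged TRM lay between the young samples in every column. The ratio of young TRM to young TCR was 117-fold (69.8 to 215), and that of aged TRM to young TCR was 16.5-fold (9.65 to 30.7). Drc1 fell to 14.1% in aged TRM, against young TRM, with a log2 ratio of -2.63 (-2.73 to -2.54 over the column pairings), the seventh lowest of the 11575 genes tested there.

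Of the 12 genes listed for this complex and its assembly 10 were in the table, and of the 4 tested besides Drc1 0 rose and 1 fell between young TRM and young TCR, against 4.18% and 3.6% of all genes, with a median log2 ratio of -0.40. Gas8, another subunit, had 9.84 CPM in aged TRM, 9.79 CPM in young TRM and 11.3 CPM in young TCR, and Iqcg had 10.3, 7.86 and 12.6 CPM. Ccdc39, which sets the spacing of the complex along the axoneme, had 2.56, 2.53 and 2.69 CPM. Its partner Ccdc40 fell, with 4.90 CPM in aged TRM, 2.10 CPM in young TRM and 10.3 CPM in young TCR, and a log2 ratio of -1.86 between young TRM and young TCR.

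Of 22 further genes of the motile cilium 17 were in the table, and none of the 6 tested between young TRM and young TCR, nor of the 8 tested between aged TRM and young TRM, passed the threshold. Over all genes 7.78% and 3.4% did. Foxj1, the master transcription factor of motile cilia, had 1.18 CPM in aged TRM, 0.482 CPM in young TRM and 0.937 CPM in young TCR. Rfx3, a transcription factor of ciliary genes, had 13.2, 20.7 and 15.6 CPM, and Spef2, a sperm tail gene, had 8.19, 8.88 and 3.996 CPM. Rfx2, a relative of Rfx3, had 3.15, 5.14 and 4.05 CPM, and Dnaaf3, which helps assemble dynein arms, had 3.30, 1.62 and 1.998 CPM. The 5 markers of ciliated cells in the table, which include Foxj1, Ccdc39 and Ccdc40, summed to 9.30, 5.42 and 14.8 CPM. Ccdc40 alone made up 4.90, 2.10 and 10.3 CPM of this. Whether ciliated cells contributed to Drc1 was not tested. Otof, 371 bases from Drc1, had 0, 2 and 0 reads, and Selenoi, 8905 bases away on the other side, had 77.2, 77.1 and 78.4 CPM.

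Cpd (gene ID 12874) lies on the minus strand of chromosome 11, positions 76777208 to 76847008, and has 21 exons and 7946 bases in its longest coding model, the longest transcript of the 6 genes. It had 7101 reads in aged TRM, 4317 in young TRM and 151 in young TCR, or 175 CPM (171 to 179), 123 CPM (119 to 126) and 3.72 CPM (3.15 to 4.37). The columns held 162 and 188 CPM in aged TRM, 123 and 122 CPM in young TRM, and 3.49 and 3.96 CPM in young TCR. Cpd was the only one of the 6 genes with its highest level in aged TRM. Young TRM was 32.9-fold (28.0 to 39.0) above young TCR and aged TRM 46.9-fold (39.9 to 55.5) above it, which made Cpd the second of 11688 genes by log2 ratio between aged TRM and young TCR. Between aged TRM and young TRM the ratio was 1.43-fold (1.37 to 1.48), a log2 ratio of 0.51 that did not pass the threshold.

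Among 21 metallocarboxypeptidase genes 14 were in the table. Besides Cpd, 7 were tested between young TRM and young TCR, of which 1 rose and 1 fell, with a median log2 ratio of 0.28. Over all genes 4.18% rose and 3.6% fell. Cpa3, a carboxypeptidase of mast cell granules, rose 6.59-fold (4.53 to 9.85), with 5.46 CPM in aged TRM, 5.36 CPM in young TRM and 0.814 CPM in young TCR, a call lost with a pseudocount of 5 (log2 ratio 0.83). Cpm, a carboxypeptidase anchored at the cell surface that also removes basic residues, fell, with 3.32, 3.04 and 13.4 CPM and a log2 ratio of -1.83. The enzymes that shorten tubulin tails, Agtpbp1 and Agbl5, had 54.9, 54.6 and 44.8 CPM and 31.5, 42.6 and 36.7 CPM.

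Proprotein convertases, only some of which cut proteins that Cpd then trims, counted 2 that rose and 1 that fell among 5 tested between young TRM and young TCR. Over all genes 4.18% rose and 3.6% fell there. Furin, which also activates the precursor of TGF-beta, rose to 211 CPM in young TRM, against 50.2 CPM in young TCR, by 4.20-fold (3.999 to 4.41), and had 147 CPM in aged TRM. Mbtps1, which activates sterol-sensing factors in the Golgi, had 192 CPM in aged TRM, 210 CPM in young TRM and 101 CPM in young TCR, and its log2 ratio of 1.05 was 0.997 when libraries were scaled by totals only. Pcsk1, a convertase of endocrine cells, fell, with 23 reads in aged TRM, 4 in young TRM and 81 in young TCR, a call lost with a pseudocount of 5 (log2 ratio -0.45) and with the deposited TPM (-0.77). Pcsk7 had 47.1, 47.5 and 38.5 CPM. None of the 4 convertases tested between aged TRM and young TRM passed the threshold, against 3.4% of all genes.

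Igfbp4 (gene ID 16010) lies on chromosome 11, positions 99040005 to 99052655, and has 4 exons in its longest coding model. It had 2169 reads in aged TRM, 7950 in young TRM and 254 in young TCR, or 53.4 CPM (51.1 to 55.6), 226 CPM (221 to 231) and 6.27 CPM (5.52 to 7.09). The columns held 55.0 and 51.7 CPM in aged TRM, 231 and 221 CPM in young TRM, and 5.26 and 7.28 CPM in young TCR. Igfbp4 thus had the most reads of the 6 genes in young TCR, and aged TRM lay between the young samples. The ratio was 36.0-fold (31.8 to 41.0) between young TRM and young TCR, and 8.52-fold (7.47 to 9.74) between aged TRM and young TCR. Igfbp4 fell to 23.6% in aged TRM, against young TRM, with a log2 ratio of -2.06 (-2.14 to -1.99 over the column pairings).

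Of 19 genes of the insulin-like growth factor axis 16 were in the table, and of the 6 tested besides Igfbp4 0 rose and 1 fell between young TRM and young TCR, against 4.18% and 3.6% of all genes, with a median log2 ratio of -0.17. Their summed level was 412 CPM in aged TRM, 521 CPM in young TRM and 331 CPM in young TCR, most of it Igf2r. The one that fell was Igfbp2, another binding protein, with 13 reads in aged TRM, 6 in young TRM and 64 in young TCR, a call lost with a pseudocount of 5 (log2 ratio -0.35). The receptor gene Igf1r had 27.6 CPM in aged TRM, 25.3 CPM in young TRM and 23.8 CPM in young TCR. Igf2r, a receptor that carries lysosomal enzymes and also binds IGF2, had 284, 428 and 217 CPM, highest in young TRM like Igfbp4, with a log2 ratio of 0.98 between young TRM and young TCR, just under the threshold, and -0.59 between aged TRM and young TRM. Stc2, an inhibitor of the protease that cleaves IGFBP-4, rose 2.56-fold (2.35 to 2.79) in aged TRM against young TRM, with 52.6 CPM in aged TRM, 20.5 CPM in young TRM and 38.5 CPM in young TCR. The 7 fibroblast markers summed to 5.17, 3.01 and 4.27 CPM. Among the neighbours of Igfbp4, Rara, the retinoic acid receptor gene 65063 bases away, rose, with 44.6 CPM in aged TRM, 63.3 CPM in young TRM and 23.7 CPM in young TCR and a log2 ratio of 1.38.

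**Figure D2:**
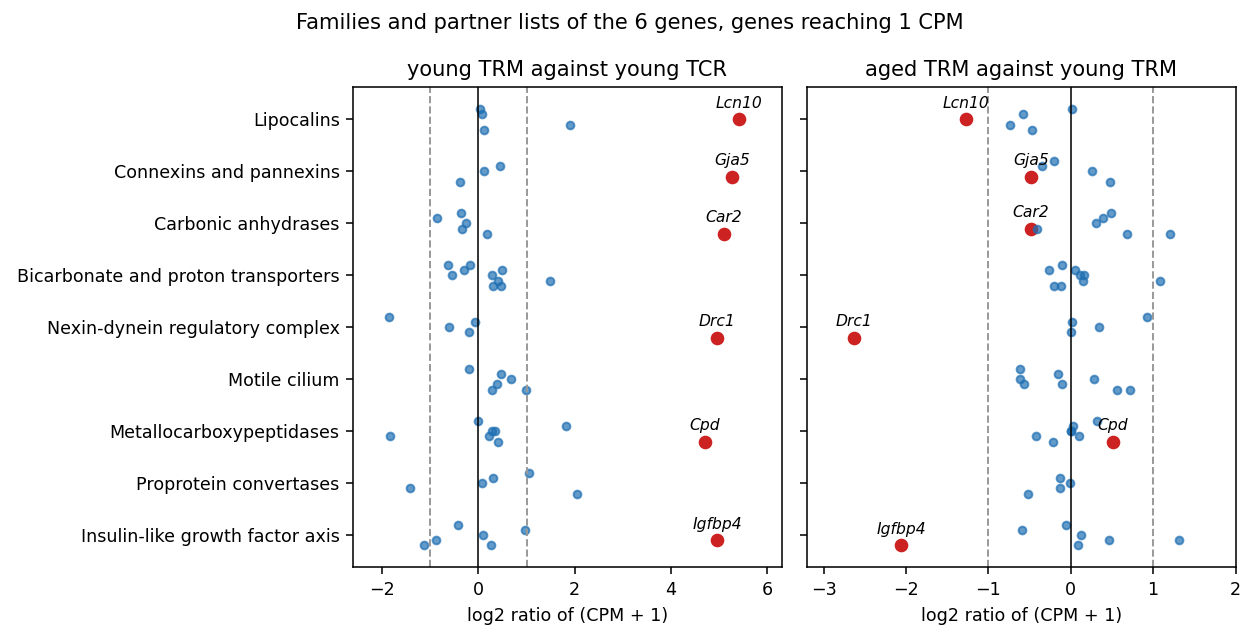
Log2 ratio of CPM plus 1 for every gene of the family and partner lists that reached 1 CPM in 1 of the 2 samples compared, for young TRM against young TCR (left) and aged TRM against young TRM (right). Red points are the 6 genes, blue points the other genes of each list, and dashed lines mark 2-fold. On the left each red point lies near 5 while the relatives lie between -1.86 and 2.05. The 6 genes were chosen on that contrast and the relatives were not, so nothing is read from this gap.

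Levels of different genes were compared by the deposited TPM, a unit corrected for the length of each transcript. In aged TRM the order was Car2 (84.9 TPM), Igfbp4 (51.7 TPM), Lcn10 (38.8 TPM), Cpd (38.2 TPM), Gja5 (17.6 TPM) and Drc1 (5.81 TPM). Lcn10 and Cpd did not differ beyond their columns there, at 39.9 and 37.8 TPM against 35.6 and 40.9 TPM. In young TRM the order was Igfbp4 (212 TPM), Car2 (116 TPM), Lcn10 (93.7 TPM), Drc1 (40.2 TPM), Cpd (25.9 TPM) and Gja5 (24.1 TPM), with no overlap between the columns of neighbours. In young TCR it was Igfbp4 (5.91 TPM), Car2 (2.26 TPM), Cpd (0.795 TPM), Lcn10 (0.410 TPM), Drc1 (0.345 TPM) and Gja5 (0.0150 TPM), where the columns of Lcn10 and Drc1 overlapped. Drc1 thus stood last in aged TRM, against the fourth place in young TRM. Cpd, for all its reads, was among the least abundant per length in young TRM.

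**Figure D3:**
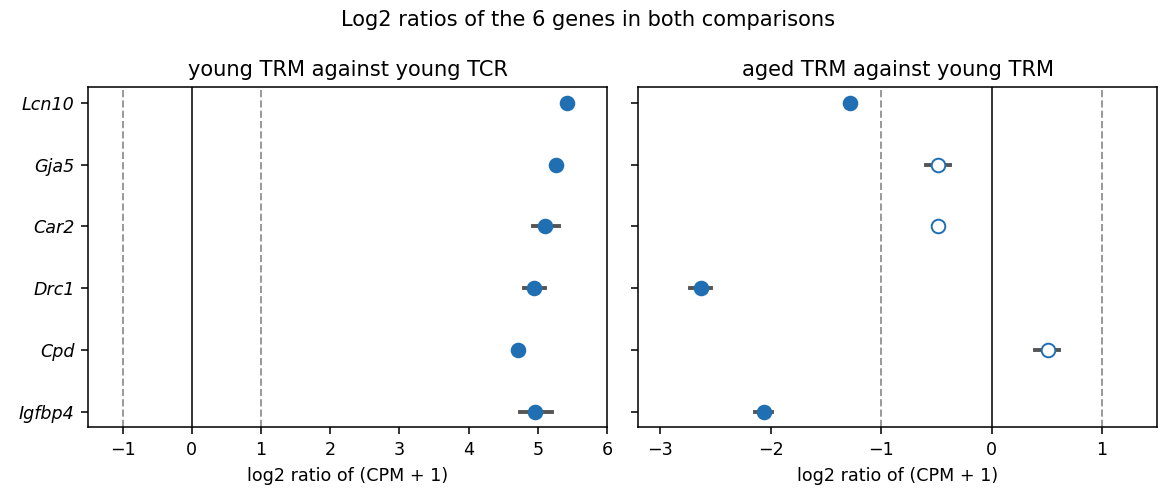
Log2 ratio of CPM plus 1 for each gene in young TRM against young TCR (left) and in aged TRM against young TRM (right). Lines span the 4 pairings of columns, filled circles passed the threshold, and dashed lines mark 2-fold. The left-hand values, on which the genes were chosen, lie between 4.71 and 5.42 with a pseudocount of 1 and between 5.00 for Cpd and 8.27 for Gja5 with one of 0.1, and the right-hand values lie between -2.63 for Drc1 and 0.51 for Cpd.

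The step between the young samples was fixed by the choice of the 6 genes, so their likeness in it is no result. Likeness was measured as the distance between log2 levels centred on their mean over the 3 samples, where a smaller distance means a more similar profile. The distances depend on the pseudocount of 1. Gja5 and Car2 were the closest pair (0.134), followed by Drc1 and Igfbp4 (0.472), and Drc1 and Cpd were farthest apart (2.47). Among 9203 other genes that reached 10 CPM in a sample, the nearest to Drc1 was Tnfrsf11a (0.0961), which encodes RANK and had 5.09 CPM in aged TRM, 36.5 CPM in young TRM and 0.321 CPM in young TCR. The nearest to Lcn10 was Cdh1 (0.166), the E-cadherin gene, with 38.3, 80.8 and 1.16 CPM, and the nearest to Igfbp4 was the fractalkine receptor gene Cx3cr1 (0.193), with 9.99, 37.9 and 0.247 CPM. The nearest to Gja5 was Itgae (0.474), which encodes CD103, with 320, 605 and 8.98 CPM, and the nearest to Car2 was Ldlrad4 (0.420), an inhibitor of TGF-beta signalling, with 238, 273 and 11.0 CPM. The nearest to Cpd was Tmem273 (0.433), which was also highest in aged TRM, with 32.0, 18.7 and 0.148 CPM. Next came Cx3cr1 and Isg20 for Drc1, Itgae and Cx3cr1 for Lcn10, Isg20 and Tnfrsf11a for Igfbp4, Cdh1 and Ldlrad4 for Gja5, Cdh1 and Itgae for Car2, and AA467197 and Ldlrad4 for Cpd. With 3 samples such distances describe these libraries only. The young samples used in the choice also enter the distances, so outside genes near the 6 genes largely share their step between the young samples. Nearness to Itgae, Cdh1 or the others is therefore no result either.

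**Figure D4:**
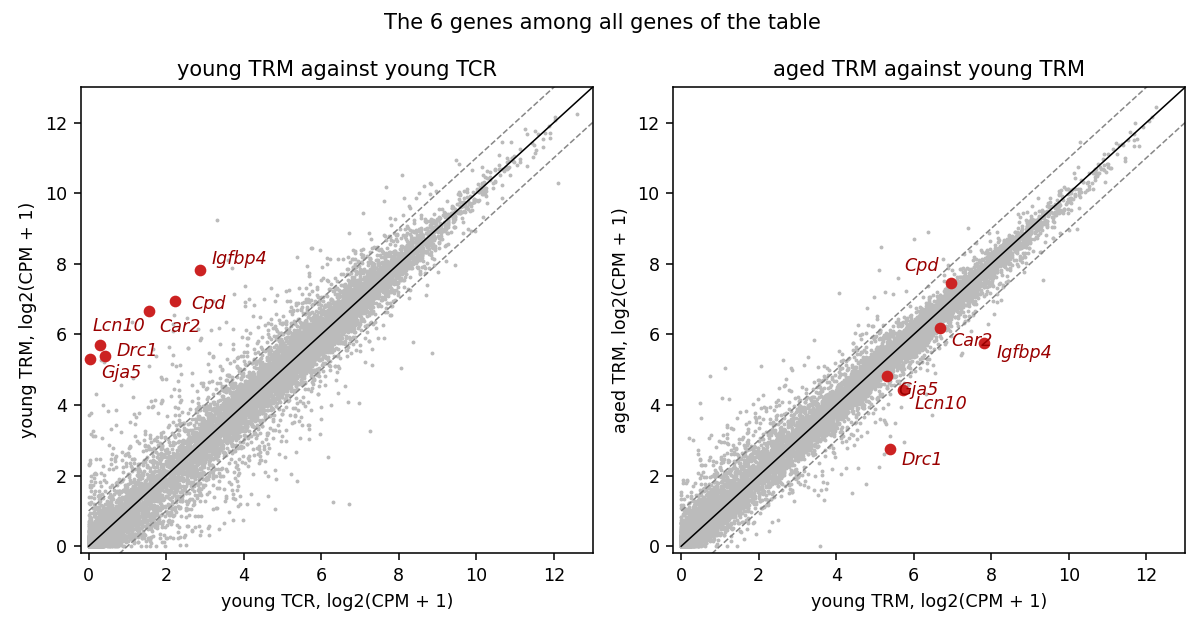
Levels of all genes as log2 of CPM plus 1, with young TRM against young TCR on the left and aged TRM against young TRM on the right. Grey points are genes, red points the 6 genes, the solid line equality and the dashed lines 2-fold. On the left the 6 genes stand at the upper edge of the cloud, and on the right Drc1, Igfbp4 and Lcn10 lie below the lower dashed line.

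Among the 6281 genes over 30 CPM in young TRM, 10 had a log2 ratio to young TCR at least as high as that of Cpd, the lowest of the 6 genes, and 4 of these (Itgae, Cdh1, Cx3cr1 and Tnfrsf11a) are not among the genes described here. Cpd stood just inside at 4.71, and Tnfrsf11a and Drc1 came before it at 4.83 and 4.95. The first genes beyond it were Ldlrad4 at 4.51, Isg20 at 4.34 and AA467197 at 4.17. Cpd, Igfbp4 and Car2 had 151, 254 and 79 reads in young TCR, so they were weakly present there, while Drc1, Lcn10 and Gja5 had 14, 9 and 1. Describing all 6 as switched on thus fits the last 3 more closely than the first 3.

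Of 48 neighbouring genes, the 4 nearest listed on each side of each locus, 27 were tested between young TRM and young TCR and 2 rose, Lcn6 and Rara, while 0 fell, against 4.18% and 3.6% of all genes. Between aged TRM and young TRM, 29 were tested, and 2 rose while 0 fell, against 2.25% and 1.15% of all genes. Counts this small do not set the neighbours apart from other genes. Those 2 were Car1 and Cd160, an NK cell receptor gene 203051 bases from Gja5, with 38.8 CPM in aged TRM, 18.7 CPM in young TRM and 30.9 CPM in young TCR. The log2 ratio of Cd160 was 1.01, and the call was lost with column 1 alone (0.94) and with a pseudocount of 5 (0.88). Neighbours that reached 1 CPM and passed the threshold in neither comparison were Bmyc beside Lcn10, Pdzk1, Gpr89, Acp6, Bcl9, Chd1l and Fmo5 beside Gja5, and Rbis, Car13, Ythdf3 and Armc1 beside Car2. The same held for Hadha, Hadhb, Selenoi, Slc35f6 and Cenpa beside Drc1, for Timm22, Abr, Gosr1, Blmh and Nsrp1 beside Cpd, and for Top2a, Ccr7, Smarce1 and Krt222 beside Igfbp4. Gosr1, the nearest neighbour of Cpd, had 64.5 CPM in aged TRM, 88.8 CPM in young TRM and 69.5 CPM in young TCR.

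Markers of other cell types were compared with the same samples. The 7 B cell markers summed to 23.7 CPM in aged TRM, 17.1 CPM in young TRM and 47.1 CPM in young TCR. The 6 platelet markers summed to 8.36, 3.92 and 15.1 CPM, and both sums were lowest in young TRM. The 9 myeloid markers summed to 23.1, 38.7 and 17.7 CPM, of which Mpeg1 alone had 15.4, 28.7 and 4.22 CPM, and S100a9 had 28, 38 and 7 reads. Of the 4 myeloid markers tested between young TRM and young TCR, these 2 had a log2 ratio above 0 and 2 had one below. The latter were Cd68, with 4.45, 5.25 and 9.23 CPM, and Itgam, with 0.664, 2.24 and 2.59 CPM. The 5 NK cell markers summed to 72.4, 103 and 218 CPM, of which Eomes, which CD8+ T cells also express, made up 65.1, 93.5 and 217 CPM, while Ncr1 had 1.18, 2.19 and 0.0493 CPM, Klrb1c 3.47, 4.14 and 0.937 CPM, and Tyrobp 1.35, 1.59 and 0.247 CPM. The 5 epithelial markers summed to 46.8, 91.5 and 8.41 CPM, of which Cdh1 made up 38.3, 80.8 and 1.16 CPM and Epcam 6.00, 8.80 and 5.08 CPM. The keratin genes Krt8, Krt18 and Krt19 had 0.937, 0.199 and 0.795 CPM in young TRM, against 0.987, 0.419 and 0.765 CPM in young TCR. The 6 dendritic cell markers summed to 18.3, 12.6 and 18.5 CPM, and the CD4 T cell genes Cd4 and Zbtb7b to 25.9, 20.4 and 28.6 CPM. Mpeg1, the smaller NK cell markers, Cdh1 and the red cell gene Hbb-bt thus moved the way of the 6 genes between the young samples, and their part in these results was not tested.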

How the data were processed

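The deposited table gave, per the file headers, a read count and a TPM value for each gene, and the counts were taken as estimated counts because many are not whole. Alignment used Bowtie to GRCm38 (mm10), per the submitters' processing notes. The sources used here name no counting program, annotation or strand setting. The deposited TPM were made by the authors per transcript length. A further 24 value columns were not used. Counts were rounded, the 2 columns of each sample summed, and libraries scaled by TMM factors (1.01 in aged TRM, 0.978 in young TRM and 1.02 in young TCR) from edgeR 4.0.16 in R 4.3.3. DESeq2 1.42.0 supplied size factors for one alternative.

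Log2 ratios of CPM plus a pseudocount of 1 and 95% Clopper-Pearson (ratios) or exact Poisson (levels) intervals were computed in Python 3.11.15 with scipy 1.17.1, for genes of at least 1 CPM in 1 of the 2 libraries compared. The rule was tested on simulated counts with counting error and little further noise, so that test does not cover variation between mice. Reads are not independent molecules, so the intervals cover counting error only. The 6 genes and all lists were chosen with earlier results of these data known. List genes were named if called in either comparison, or among up to 4 of highest CPM in a list. Obp2a, Obp2b, Car3, Otof, Selenoi, Foxj1 and individual cell markers were named after their values were seen. Positions and promoters come from RefSeq (GRCm38.p6) and exon models from GENCODE on GRCm38. Protein sequences were not used here.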

Additional observations from a re-analysis of the deposited data

How the results depend on the processing

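Under all 9 alternatives tried (scaling by totals only, DESeq2 size factors, pseudocounts of 5 and 0.1, no filter, a filter of at least 10 CPM, the deposited TPM, and each column alone), each of the 6 genes kept its direction and its call or lack of one in both comparisons. Between young TRM and young TCR the log2 ratios ranged from 3.09 (Drc1, pseudocount of 5) to 8.27 (Gja5, pseudocount of 0.1), and between aged TRM and young TRM from -2.81 for Drc1 to 0.61 for Cpd. In aged TRM against young TCR, all 6 genes rose under each alternative except the filter of at least 10 CPM. That filter left Drc1 out, and 5 rose. With a pseudocount of 5 the log2 ratio of Drc1 there was 1.002, just above the threshold. Counts over all genes depended on how low values were handled. With a pseudocount of 5, 296 genes rose and 190 fell in young TRM against young TCR, 87 and 62 in aged TRM against young TRM, and 248 and 113 in aged TRM against young TCR (482 and 272 with a pseudocount of 1). With a pseudocount of 0.1, 472 rose and 208 fell in aged TRM against young TRM, and 428 fell in aged TRM against young TCR. With genes of at least 10 CPM, 234 fell in young TRM against young TCR, 123 rose in aged TRM against young TRM, and 279 rose and 163 fell in aged TRM against young TCR. By construction, a pseudocount of 5 shrinks the ratios of weakly expressed genes, a pseudocount of 0.1 enlarges them, and the filter of at least 10 CPM leaves such genes out. No paired analysis was possible because each group has 1 sample. The depth limits the ratio of Gja5 in particular, since young TCR held 1 read of it, and 3 reads there correspond to 0.0740 CPM.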
